A study of Homo sapiens with 4 samples.

Results

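The genes described here are 38 components of the PI3K, AKT and mTOR signaling pathway, read by symbol from an RNA-seq table of 47432 genes in T24 bladder cancer cells. They were chosen by gene name, with earlier results of these data known. Among them are PIK3R6, RPTOR, RRAGD and PIK3IP1, which the study names as changed in these libraries. They comprise 5 PI3K catalytic subunits, 5 PI3K regulatory subunits, a PI3K inhibitor and a lipid phosphatase, 3 genes of the AKT arm, 7 parts of mTORC1 and mTORC2, 3 genes of the TSC and RHEB switch, 4 mTORC1 substrates, 4 Rag GTPases and 5 Ragulator subunits. T24 is an established line of invasive human bladder carcinoma, and all 4 libraries came from this single line. A pair of libraries (control 1 and control 2) came from cells labelled untreated, for which the study's methods give DMSO as vehicle, and the other pair (ISO 1 and ISO 2) from cells given 20 µM isorhapontigenin (ISO) for 24 h. ISO is a plant stilbene related to resveratrol. The comparison asks which parts of the pathway differed at the RNA level in ISO-treated cells.

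Class I PI3K joins a catalytic and a regulatory subunit at the plasma membrane and makes the lipid PIP3 when growth factor receptors are active. PIP3 brings AKT to the membrane, where PDPK1 and mTORC2 phosphorylate it, and AKT then inhibits the TSC complex, which otherwise keeps the GTPase RHEB off. Active RHEB turns on mTORC1 at the lysosome, to which Rag GTPases and their Ragulator anchor bring it when amino acids are plentiful, and mTORC1 phosphorylates S6 kinases and the 4E-BP repressors of translation. Most of this signaling runs through phosphorylation and lipids, which RNA levels do not measure. The pathway is often activated in bladder cancer.

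Each value is an RPKM, a read density over the exons of a gene, corrected for exon length and for library size. Reads recovered from these values numbered between 32349830 and 42879427 per library, and ISO 2 was the shallowest. At this depth, 3 reads on 1 kilobase of exon correspond to 0.0670 to 0.0885 RPKM. Fold changes compare RPKM after trimmed-mean (TMM) scaling between libraries, the scaling the study's methods name, and a gene was called when its adjusted p from limma was under 0.05. Without that scaling the median log2 fold change of all tested genes was 0.06, and with it -0.01, so a gene with equal deposited RPKM in both groups has a slightly negative fold change here. Neither the labels nor the methods state that replicate libraries were separate cultures, and the p-values then cover the spread among these 4 libraries, which may be technical. For the labelled bladder epithelial origin, the keratin genes KRT7 (310 to 371 RPKM), KRT18 (256 to 302 RPKM), KRT8 and KRT19 were high, but CDH1, KRT5, TP63, UPK1B and UPK3A lay at or below 0.0237 RPKM in every library. The summed RPKM of the 14 epithelial and urothelial markers was 848 to 860 in control and 731 to 741 in ISO libraries. Of the 9 tested, 1 was higher and 4 lower, 55.6% beside 9.91% of all tested genes (3.9% higher and 6% lower). GATA3 rose (log2 fold change 0.49, limma adjusted p = 0.015). PPARG fell most (-0.95, limma adjusted p = 0.0018), and KRT7, KRT18 and KRT19 fell too. KRT8, EPCAM (1.14 to 1.30 RPKM), UPK1A and UPK2 (at or below 0.473 RPKM) were not called. The part of these changes in the pathway values was not tested. Of the 5 endothelial markers CDH5 fell, from 17.7 and 17.7 RPKM in control to 14.0 and 14.5 RPKM in ISO libraries (log2 fold change -0.38, adjusted p = 0.0038), PECAM1, at or below 0.194 RPKM, was not called (0.48, adjusted p = 0.30), VWF lay at or below 0.0114 RPKM, and KDR and TEK were at 0. Of the 6 fibroblast markers PDGFRB rose, from 0.369 and 0.394 RPKM to 0.621 and 0.728 RPKM (log2 fold change 0.63, adjusted p = 0.037, lost without any one library), COL1A1 lay at 0.748 to 0.990 RPKM and was not called, and COL1A2, COL3A1, DCN and LUM were at 0. The summed RPKM of the endothelial markers was 17.7 to 17.8 in control and 14.2 to 14.7 in ISO libraries, that of the fibroblast markers 1.21 in both controls and 1.37 and 1.72 in ISO libraries, and their part in the pathway values was not tested. In bulk RNA, fewer cells expressing a gene and less RNA per cell cannot be told apart.

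All 38 members were detected in every library, with means over the 4 libraries from 1.11 to 86.5 RPKM, and all 38 passed the filter on low values (a mean of at least 0.1 RPKM). In ISO-treated cells, 5 members passed the test. PIK3IP1, a membrane protein that inhibits PI3K, rose, and PIK3R6, RPTOR, RPS6KB2 and EIF4EBP1 fell. The 1 higher member stands against 3.9% of all 15304 tested genes called higher, the 4 lower members against 6% called lower, and the 5 in all (13.2% of the members) against 9.91% called in either direction. Among the 10735 tested genes with a mean of at least 1 RPKM, which all members exceed, 12.8% were called, so the members' share was close to that of genes of like abundance. The median log2 fold change of the members was -0.03, beside -0.01 for all tested genes, with 16 members above 0 and 22 below. After scaling, the libraries of the 2 groups did not overlap for 27 of the 38 members, or 71.1%, beside 57.1% of all tested genes.

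**Figure D1:**
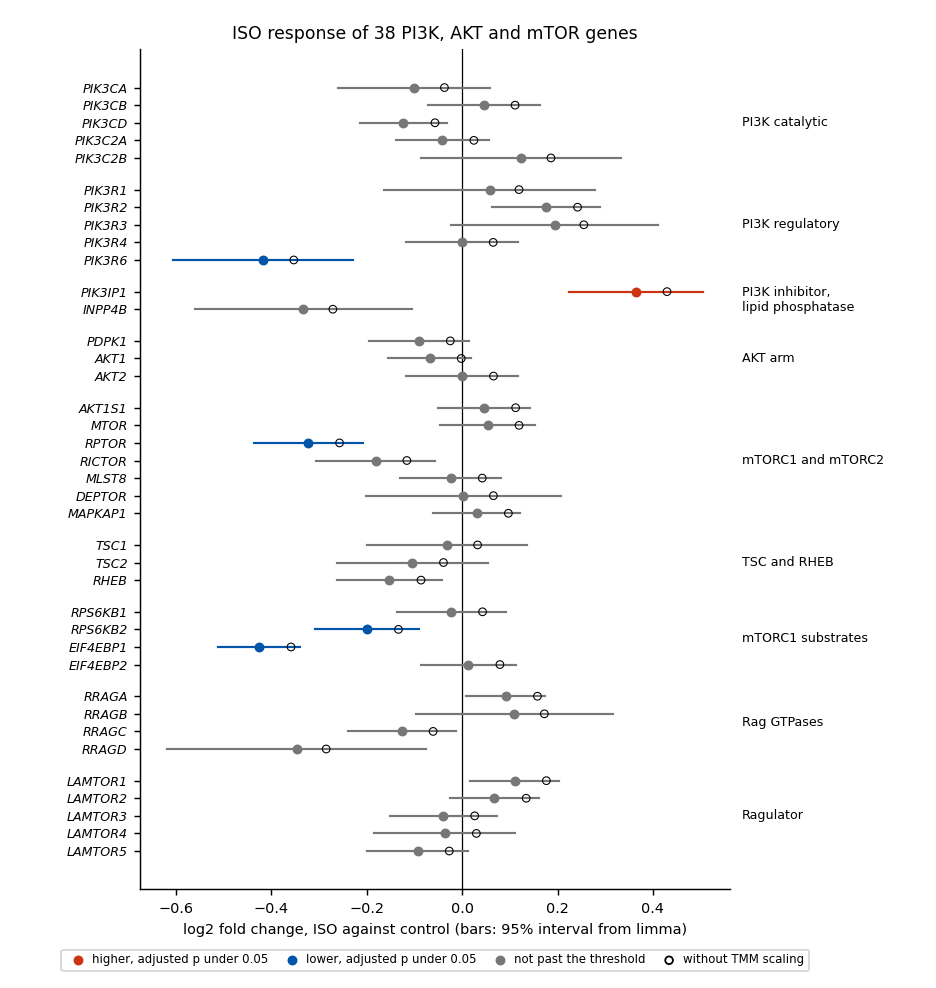
Log2 fold change of each of the 38 members in ISO-treated against control T24 cells (n = 2 libraries per group), with bars for the 95% interval from limma; open circles give the value without TMM scaling. EIF4EBP1 and PIK3R6 (blue, near -0.43 and -0.42) and PIK3IP1 (red, 0.36) lie outside the range of the 33 members not called, -0.35 to 0.19, and RPTOR and RPS6KB2 lie inside it.

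The count of called members depended on how low genes were treated and on the model. When only genes with a mean of at least 1 RPKM were tested, 9 members were called, 2 higher and 7 lower, beside 20% of those genes (8.31% higher and 11.7% lower). Limma-voom on the recovered reads called 11 members, 2 higher and 9 lower, beside 18.5% of genes (7.68% higher and 10.8% lower). Without scaling 7 members were called, 4 higher and 3 lower, beside 13.4% of genes (9.3% higher and 4.12% lower). Median-of-ratios scaling and pseudocounts of 1 and 0.01 each called 5 members, beside 10.1%, 9.8% and 9.8% of genes. With no filter 1 member, EIF4EBP1, was called, beside 0.911% of genes, and with the library letter as a block 4 were, beside 8.31%. Leaving out control 1 or control 2 left 4 and 2 members called, beside 5.38% and 4.47% of genes, and leaving out ISO 1 or ISO 2 left 2 and 1, beside 2.59% and 2.81%. EIF4EBP1 was the single member called in the main test, in all 8 of these alternatives and without each library in turn.

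**Figure D2:**
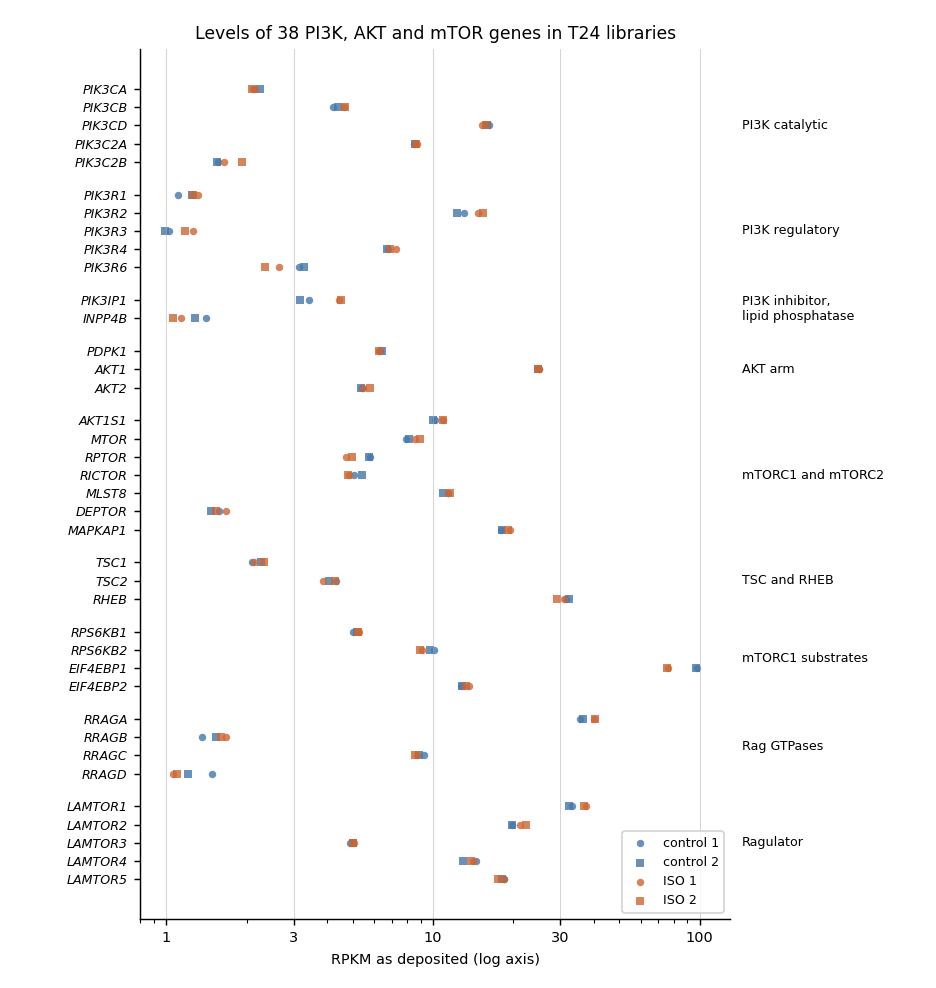
Deposited RPKM of the 38 members in each of the 4 libraries, on a log axis, grouped by role. The levels span 1.11 to 86.5 RPKM as means over the libraries, and for most members the 4 points lie close together.

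Levels per length differed far more between members than between treatments. The most abundant members by mean RPKM were EIF4EBP1 at 86.5, RRAGA at 38.1, LAMTOR1 at 34.9 and RHEB at 31.0, all of them in the mTORC1 branch. The least abundant were INPP4B at 1.22, PIK3R1 at 1.23, RRAGD at 1.21 and PIK3R3 at 1.11 RPKM. RRAGA and LAMTOR1 were not called, at 35.5 and 36.6 RPKM in control against 40.1 and 40.3 in ISO libraries for RRAGA, and 33.2 and 32.3 against 37.3 and 36.8 for LAMTOR1. Both were called higher without scaling between libraries (adjusted p = 0.028 and 0.022) and in none of the other 7 alternatives, over which the adjusted p ran up to 0.22 and 0.21.

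The PI3K catalytic subunits, which phosphorylate the membrane lipids, showed no called change among the 5, and their log2 fold changes ran from -0.12 for PIK3CD to 0.12 for PIK3C2B. PIK3CD, the p110-delta subunit best known from leukocytes, supplied 71.2% ± 0.94 (SD, n = 2) of the summed RPKM of the 3 class IA catalytic genes in control cells and 69.5% ± 0.62 in ISO-treated cells. PIK3CB supplied 19.1% and 21.0%, and PIK3CA, the subunit most often mutated in carcinomas, 9.68% and 9.56%. These shares depend on the annotated exon lengths, which were 17189 bases for PIK3CA, 9567 for PIK3CD and 7841 for PIK3CB. The opposite-strand gene CLSTN1 shares 1.98% of the exon bases of PIK3CD. CLSTN1 read 71.4 and 70.4 RPKM in control and 69.9 and 73.2 RPKM in ISO libraries, and its part in the PIK3CD values was not tested. PIK3CD itself read 16.2 and 16.0 RPKM in control and 15.2 and 15.8 in ISO libraries, a log2 fold change of -0.12 (95% interval -0.22 to -0.03, adjusted p = 0.097 in the limma test). Of 8 leukocyte markers, PTPRC, CD3E and LYZ were at 0 in all 4 libraries, and only CD14, at 2.98 to 3.67 RPKM, passed 0.1 RPKM. The summed leukocyte markers gave 3.07 to 3.13 RPKM in control and 3.18 to 3.74 RPKM in ISO libraries. Among the class II genes, PIK3C2A made up 84.6% of the pair in control and 82.9% in ISO-treated cells.

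The regulatory subunits, which are binding partners of the catalytic subunits, had fold changes of both signs. PIK3R6, an adaptor of the class IB enzyme known from immune cells, fell, and the other 4 were not called. PIK3R6 (chromosome 17, 8802722 to 8867677, minus strand, hg38) read 3.14 and 3.29 RPKM in control and 2.65 and 2.34 RPKM in ISO libraries, from 283 to 501 reads per library. The groups did not overlap, and ISO 2 was the lowest of the 4. Its log2 fold change was -0.42 (SE 0.078, 95% interval -0.61 to -0.23, adjusted p = 0.025), that is, 25.1% lower. Without ISO 2 or without control 2 the call was lost (adjusted p = 0.091 and 0.088 in limma), and over the 8 alternatives the adjusted p ran from 0.0025 to 0.11, missing the threshold only with no filter. The class IB catalytic partner PIK3CG lay at 0.657 to 0.851 RPKM and its other adaptor PIK3R5 at or below 0.0089 RPKM in every library.

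PIK3R2, the p85-beta subunit, supplied 85.4% ± 0.96 of the summed RPKM of the 3 class IA regulatory genes in control and 85.7% ± 0.84 in ISO-treated cells. It read 13.1 and 12.4 RPKM in control and 14.8 and 15.4 RPKM in ISO libraries, so that both ISO libraries lay above both controls. Its log2 fold change was 0.18 (SE 0.047, adjusted p = 0.068), and it was called higher in 3 of the 8 alternatives, over which the adjusted p ran from 0.012 to 0.16. Its value is uncertain because an unnamed gene on the same strand shares 76.4% of its exon bases, and that gene was listed at 2.34 and 2.81 RPKM in control and 1.75 and 2.06 RPKM in ISO libraries. PIK3R1 and PIK3R3, the other class IA adaptors, stood near 1 RPKM, with log2 fold changes of 0.06 and 0.19 that did not pass the test. PIK3R4, the regulatory subunit of the class III enzyme VPS34, had a log2 fold change of -0.00088 (95% interval -0.12 to 0.12).

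PIK3IP1, whose protein binds the catalytic subunit and restrains PI3K, was the single member called higher. It read 3.42 and 3.19 RPKM in control and 4.45 and 4.51 RPKM in ISO libraries, from 513 to 691 reads per library. Both ISO libraries lay well above both controls. ISO-treated cells had a log2 fold change of 0.36 (SE 0.059, 95% interval 0.22 to 0.51, adjusted p = 0.016), that is, 28.7% higher. The call was lost without control 2, ISO 1 or ISO 2 (adjusted p = 0.065, 0.085 and 0.084 in limma), and over the 8 alternatives the adjusted p ran from 0.0012 to 0.073, missing the threshold only with no filter. The gene lies on chromosome 22 at 31281594 to 31292534 on the minus strand (hg38, GENCODE v44).

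PIK3IP1 is known as a target of FOXO factors, the transcription factors that AKT keeps out of the nucleus. The RefSeq windows (GRCh38.p14) from 250 bases before to 50 bases after each of its 2 annotated starts were therefore searched on both strands for the FOXO core GTAAACA. One match lay in the transcribed part, 16 bases after the second start, and is shown first with the match in capitals (as its reverse complement, chr22:31292456-31292482, minus strand). The 250 bases before the first start (chr22:31292535-31292784, minus strand) follow, as the promoter of the one member called higher, and they hold no match to this or the other motifs searched.
PIK3IP1 site: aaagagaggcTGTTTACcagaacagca
PIK3IP1 promoter: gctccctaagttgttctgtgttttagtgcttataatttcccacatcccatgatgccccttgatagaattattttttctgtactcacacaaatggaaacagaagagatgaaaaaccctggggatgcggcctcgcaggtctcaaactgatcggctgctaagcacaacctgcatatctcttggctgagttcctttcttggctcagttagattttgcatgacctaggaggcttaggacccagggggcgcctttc
The GTAAACA letters occur in 3.42% of all 35116 RefSeq windows of the same length, and in 2 of the 31 members with a window, PIK3IP1 and PIK3CA. The match is a description of the letters and not evidence of binding.

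INPP4B, a phosphatase that removes a phosphate from the PI3K lipid product PI(3,4)P2, was low and not called. It read 1.41 and 1.28 RPKM in control and 1.13 and 1.06 RPKM in ISO libraries, so that both ISO libraries lay below both controls. Its log2 fold change was -0.33 (SE 0.095, adjusted p = 0.080). It was called lower in 2 of the 8 alternatives, and the adjusted p ran over them from 0.0018, in limma-voom, to 0.21. In these data the 2 negative regulators of PI3K thus had fold changes of opposite sign, and only that of PIK3IP1 passed the test.

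**Figure D3:**
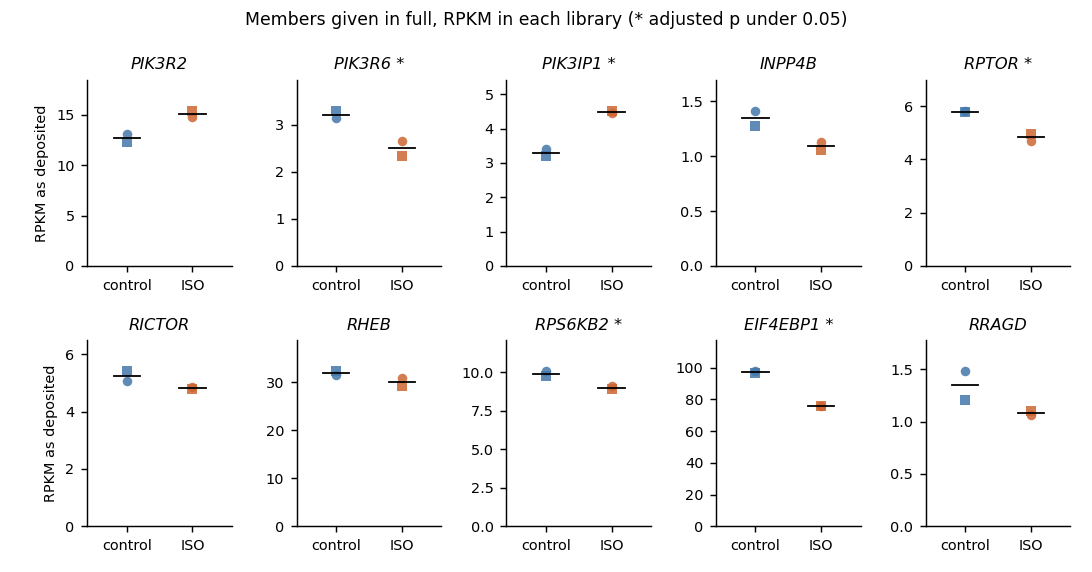
Deposited RPKM of 10 members in control and ISO-treated libraries, each axis starting at 0; circles are replicate 1, squares replicate 2 and lines the mean of the pair, and an asterisk marks an adjusted p under 0.05. EIF4EBP1 shows the widest gap relative to its spread, from 97.6 and 96.9 RPKM in control to 76.0 and 75.6 RPKM in ISO libraries.

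The AKT arm showed no called change. AKT1, the main AKT kinase gene here by RPKM, read 25.0 and 24.8 RPKM in control and 24.9 and 24.8 RPKM in ISO libraries. Its log2 fold change was -0.07 (95% interval -0.15 to 0.02, adjusted p = 0.28). AKT2, known for its part in insulin responses, read 5.41 and 5.36 RPKM in control and 5.47 and 5.83 RPKM in ISO libraries, with a 95% interval of -0.12 to 0.12 on the log2 scale. AKT1 supplied 82.2% ± 0.023 of the summed RPKM of this pair in control and 81.5% ± 0.72 in ISO-treated cells. PDPK1, the kinase that phosphorylates the activation loop of AKT, lay between 6.27 and 6.42 RPKM in all libraries, with a log2 fold change of -0.09 (adjusted p = 0.24).

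Of the 7 genes of the mTOR complexes, RPTOR was the one called. It encodes Raptor, the scaffold that defines mTORC1 and presents substrates to the kinase. RPTOR (chromosome 17, 80544819 to 80966371, plus strand, hg38) read 5.82 and 5.77 RPKM in control and 4.71 and 4.96 RPKM in ISO libraries, from 1731 to 2684 reads per library. The control libraries differed by far less than the gap between the groups. The log2 fold change was -0.32 (SE 0.048, 95% interval -0.44 to -0.21, adjusted p = 0.013), that is, 20.0% lower. Without ISO 1 or ISO 2 the call was lost (adjusted p = 0.071 and 0.054 in limma), and over the 8 alternatives the adjusted p ran from 3.65e-05 to 0.058, missing the threshold only with no filter. The 250 bases before its RefSeq start (chr17:80544588-80544837, plus strand, GRCh38.p14) are given as the promoter of the mTORC1 scaffold that fell.
RPTOR promoter: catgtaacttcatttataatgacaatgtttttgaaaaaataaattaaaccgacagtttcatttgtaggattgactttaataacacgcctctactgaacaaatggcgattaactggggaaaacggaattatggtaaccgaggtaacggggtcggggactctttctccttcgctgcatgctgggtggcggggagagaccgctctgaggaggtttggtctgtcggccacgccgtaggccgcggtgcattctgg
No E-box, FOXO or HIF core letters were found in this stretch, which is shown in lower case throughout for that reason.

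RICTOR, the scaffold that defines mTORC2, read 5.07 and 5.41 RPKM in control and 4.85 and 4.79 RPKM in ISO libraries. Its groups did not overlap, and its log2 fold change was -0.18 (SE 0.052, adjusted p = 0.079). It was called lower in 2 of the 8 alternatives, with adjusted p from 0.0086 to 0.19. The opposite-strand gene OSMR shares 1.70% of its exon bases and read 23.5 and 23.5 RPKM in control and 21.1 and 20.6 RPKM in ISO libraries. MTOR, the kinase of both complexes, had a log2 fold change of 0.05 (95% interval -0.05 to 0.15), with mean deposited RPKM of 8.02 in control and 8.72 in ISO libraries. MLST8, shared by both complexes, MAPKAP1, the mSIN1 subunit of mTORC2, AKT1S1, the mTORC1 inhibitor PRAS40, and DEPTOR, an inhibitor of both, had log2 fold changes from -0.02 to 0.05. In these libraries the Raptor gene therefore fell while that of its kinase partner did not pass the test, and the difference between the 2 genes was not tested.

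The TSC and RHEB switch showed no called change. RHEB, the GTPase that activates mTORC1, read 31.5 and 32.3 RPKM in control and 31.0 and 29.1 RPKM in ISO libraries. The ISO libraries were lower, with ISO 1 close to control 1. RHEB had a log2 fold change of -0.15 (SE 0.046, adjusted p = 0.090), called lower in 2 of the 8 alternatives with adjusted p from 0.023 to 0.21. TSC1 and TSC2, which form the complex that switches RHEB off, had log2 fold changes of -0.03 and -0.10, and the libraries of their groups overlapped.

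Among the 4 mTORC1 substrates, EIF4EBP1 and RPS6KB2 fell and their paralogs EIF4EBP2 and RPS6KB1 were not called. EIF4EBP1 encodes 4E-BP1, which blocks the cap-binding factor eIF4E until mTORC1 phosphorylates it, and it was the most abundant of the 38 members. It read 97.6 and 96.9 RPKM in control and 76.0 and 75.6 RPKM in ISO libraries, from 2254 to 3848 reads per library. The libraries of a group nearly coincided, and both ISO libraries lay far below both controls. The log2 fold change was -0.43 (SE 0.036, 95% interval -0.51 to -0.34, adjusted p = 0.0025), that is, 25.5% lower. Over the 8 alternatives the adjusted p ran from 4.68e-07 to 0.037, and without each library in turn from 0.0082 to 0.024. EIF4EBP2, its paralog with the same role, read 12.7 and 12.8 RPKM in control and 13.7 and 13.3 RPKM in ISO libraries, with a log2 fold change of 0.01 (95% interval -0.09 to 0.11).

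RPS6KB2 encodes the S6 kinase S6K2. The gene (chromosome 11, 67428460 to 67435401, plus strand, hg38) read 10.1 and 9.73 RPKM in control and 9.10 and 8.91 RPKM in ISO libraries. The groups did not overlap, and the gap between them was small beside those of the other called members. The log2 fold change was -0.20 (SE 0.045, 95% interval -0.31 to -0.09, adjusted p = 0.043), that is, 12.9% lower. The call was lost without any one of the libraries (adjusted p = 0.19 without control 1, 0.085 without control 2, 0.10 without ISO 1 and 0.16 without ISO 2), and over the 8 alternatives the adjusted p ran from 0.0060 to 0.11, missing the threshold without scaling (0.081), with no filter and with the library letter as a block (0.057). RPS6KB1, the gene of the better studied S6K1, stayed between 5.01 and 5.28 RPKM, with a log2 fold change of -0.02 (adjusted p = 0.81).

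None of the 4 Rag GTPase genes was called. Rag proteins act as pairs of RagA or RagB with RagC or RagD, and they tether mTORC1 to the lysosome. RRAGD, a known target of the lysosomal transcription factors TFEB and MITF, read 1.48 and 1.21 RPKM in control and 1.06 and 1.10 RPKM in ISO libraries, from 190 to 338 reads. Control 1 stood well above the other 3 libraries. RRAGD had a log2 fold change of -0.35 (SE 0.11, 95% interval -0.62 to -0.08, adjusted p = 0.11), and without control 1 it was -0.20. It was called lower in 1 of the 8 alternatives, limma-voom (adjusted p = 0.036), with adjusted p up to 0.27 over the others. The study reports RRAGD as significantly downregulated, from a different test than the main one here, which did not call it. RRAGC, the more abundant of that pair at 87.1% of the summed RPKM in control and 88.9% in ISO-treated cells, had a log2 fold change of -0.13 (adjusted p = 0.15). RRAGA supplied 96.2% and 96.1% of the RagA and RagB pair.

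The 5 Ragulator genes, LAMTOR1 to LAMTOR5, encode the scaffold that anchors the Rag proteins to the lysosomal membrane. None was called, and their log2 fold changes ran from -0.09 for LAMTOR5 to 0.11 for LAMTOR1. Their RPKM differed, from a mean of 4.98 for LAMTOR3 to 34.9 for LAMTOR1. LAMTOR2, at 20.8 RPKM, LAMTOR5, at 18.2 RPKM, and LAMTOR4, at 13.9 RPKM, lay between them.

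Ratios between paired genes of the pathway were taken within each library, where the scaling between libraries cancels. They are given as a description with no test. In 7 of the 10 pairs the ISO and control libraries did not overlap. No share over other gene pairs was taken, so this count is not read as a result about the pathway. For single genes after scaling, the groups did not overlap in 57.1% of all tested genes. The ratio of EIF4EBP1 to EIF4EBP2 moved most, from log2 values of 2.94 and 2.92 in control to 2.47 and 2.51 in ISO libraries, that is, from 7.69 and 7.56 times to 5.55 and 5.70 times. The ratio of RPS6KB1 to RPS6KB2 went from 0.498 and 0.534 to 0.580 and 0.587. RPTOR to RICTOR, the balance of the mTORC1 and mTORC2 scaffolds, went from 1.15 and 1.07 to 0.971 and 1.03. AKT1 to AKT2 read 4.61 and 4.62 in control and 4.56 and 4.26 in ISO libraries. The PIK3R1 to PIK3R2, TSC1 to TSC2 and RRAGA to RRAGB ratios overlapped between the groups.

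**Figure D4:**
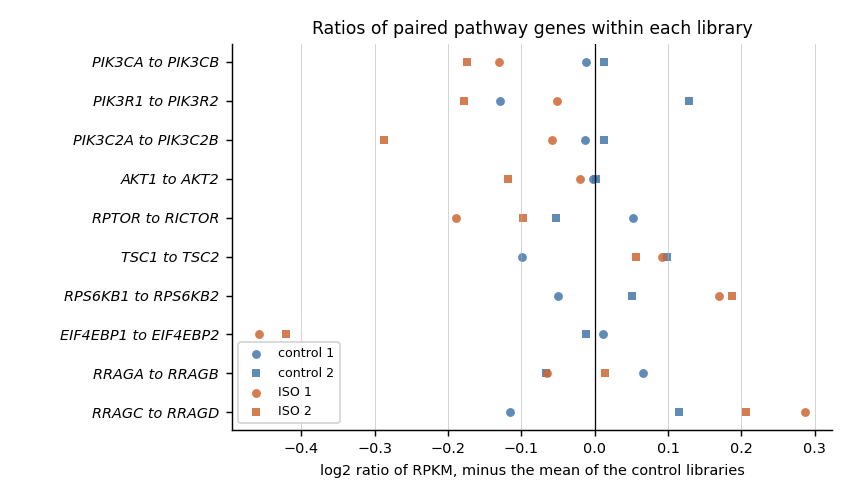
Log2 ratio of RPKM for 10 pairs of pathway genes in each library, with the mean of the control libraries subtracted. The ISO libraries of the EIF4EBP1 to EIF4EBP2 pair lie farthest from the controls, a mean difference of -0.44, and 3 pairs overlap.

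The rest of the pathway was read from 7 lists of regulators, substrates and transcription targets, 97 genes besides the members, of which 92 were tested. Of these, 3 were called higher and 7 lower, 10.9% of the genes tested beside 9.91% of all genes, and their median log2 fold change was -0.03. In each of the 7 lists most genes had a mean of at least 1 RPKM. Among all tested genes at that level 12.8% were called, so the 9.91% set beside each list is a low baseline. None of the 14 tested genes among other PI3K and AKT genes was called, nor any of the 11 AKT substrates and relatives, which include FOXO1, FOXO3, GSK3A and GSK3B.

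Among the energy and stress inhibitors, DDIT4 had the largest change of these lists in size. DDIT4 encodes REDD1, a hypoxia-inducible and stress-inducible protein that restrains mTORC1 through the TSC complex. It fell from 371 and 337 RPKM in control to 210 and 190 RPKM in ISO libraries. The groups lay far apart, with a log2 fold change of -0.89 (SE 0.074, adjusted p = 0.0024). It was called without each library in turn and in all 8 alternatives. In the same list PRKAG1, a regulatory subunit of AMPK, rose from 13.9 and 14.2 to 17.5 and 17.1 RPKM (log2 fold change 0.23, adjusted p = 0.019), and CAB39, a partner of the AMPK-activating kinase LKB1, fell from 17.1 and 16.6 to 15.5 and 15.7 RPKM (-0.17, adjusted p = 0.043). In all, 1 of the 11 tested genes of this list rose and 2 fell, 27.3% beside 9.91% of all tested genes (3.9% higher and 6% lower). The other 8 genes of the list were not called.

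Of 24 tested amino acid and lysosome sensing genes, 1 rose and 2 fell, 12.5% beside 9.91% of all tested genes (3.9% higher and 6% lower). CASTOR1, the arginine sensor that holds back mTORC1, fell from 3.64 and 3.50 RPKM to 2.86 and 2.79 RPKM (log2 fold change -0.39, SE 0.059, adjusted p = 0.013). ITFG2, a subunit of the KICSTOR complex, rose from 1.50 and 1.53 to 2.05 and 2.03 RPKM (log2 fold change 0.34, adjusted p = 0.029). FNIP1, which acts with folliculin on RagC and RagD, fell from 4.95 and 5.20 to 4.59 and 4.51 RPKM (-0.22, adjusted p = 0.045). Of 17 other mTORC1 and mTORC2 genes, 1 was called, 5.88% beside the same 9.91% of all tested genes. It was EIF4B, a translation initiation factor phosphorylated by S6 kinases, which fell from 93.8 and 93.6 to 88.3 and 88.8 RPKM (-0.15, adjusted p = 0.047). The calls of PRKAG1, CAB39, ITFG2, FNIP1 and EIF4B were each lost without any one library, and that of CASTOR1 without ISO 1 or ISO 2 (highest adjusted p over the leave-outs of these genes 0.23). CAB39, FNIP1 and EIF4B were also not called without scaling (adjusted p = 0.10, 0.096 and 0.11) or with the library letter as a block (0.070, 0.076 and 0.062), and with no filter none of these 6 genes was called (0.064 to 0.11).

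**Figure D5:**
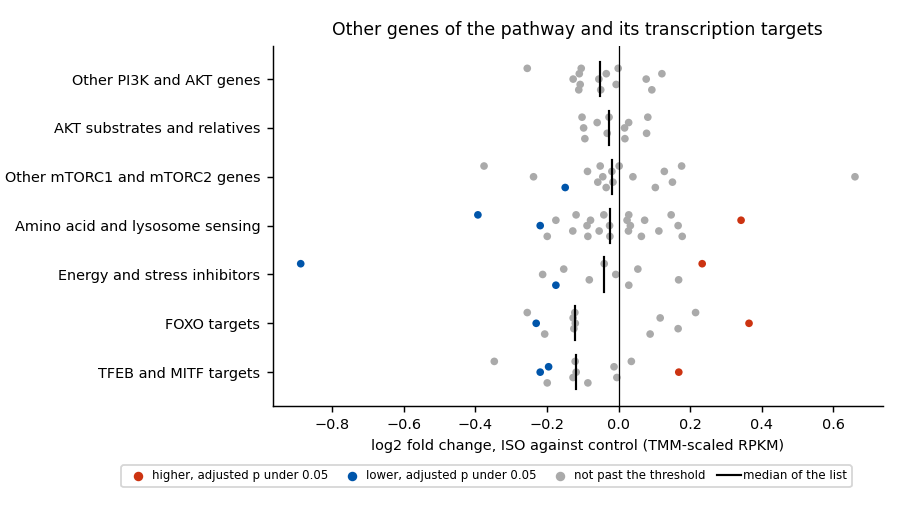
Log2 fold change of the tested genes of 7 lists beside the members, with a bar at the median of each list; the last 2 lists, of transcription targets, also hold PIK3IP1, RRAGC and RRAGD. DDIT4, at -0.89, lies farthest from 0.

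RefSeq promoter windows were found for 31 of the 38 members, among them 3 of the 5 called, PIK3IP1, RPTOR and RPS6KB2. On both strands, the E-box letters CACGTG, bound by MYC and by TFEB relatives, occurred in the windows of 6 members, INPP4B, LAMTOR1, LAMTOR4, RRAGB, RRAGC and TSC2, beside 7.26% of all windows. The longer TCACGTGA, which holds CACGTG, occurred in RRAGB and TSC2, beside 0.98% of all windows. None of these 6 was called. The letters ACGTG, the core of the HIF site, which every CACGTG also holds, occurred in 13 members, beside 21.4% of all windows. They occurred in none of the 3 called members with a window. The called members PIK3R6 and EIF4EBP1 had no window and could not be searched. A gene can have several windows, so the members' counts are not shares of the same kind as the percentages.

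Exon overlap limits some of these values. In all, 22 members share exon bases with another gene, 8 of them over 10% of their own, and whether the counting used strand is not stated. For EIF4EBP1, EIF4EBP2, LAMTOR3, LAMTOR5, PIK3CD, RHEB and RRAGA, GENCODE annotates 12 pseudogenes that carry their names, and none of these has a row in the table, so reads of such copies could not be separated.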

How the data were processed

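RNA from control and ISO-treated T24 cells (2 libraries each) was sequenced from paired-end TruSeq libraries. The authors trimmed the reads, aligned them to hg38, summed reads on exons per gene and deposited RPKM, without TMM scaling, for 47432 genes (24052 above 0). The authors' mean columns were not used. The labels and the methods name different media and control conditions (untreated, DMSO).

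The RPKM were divided by TMM factors (own code, trimming 30% of ratios and 5% of levels; 0.972 and 0.982 for control, 1.02 and 1.03 for ISO) and tested as log2(RPKM + 0.1) in limma (version 3.58.1, R 4.3.3; variance trend on) for the 15304 genes whose mean reached 0.1 RPKM. P-values were adjusted by Benjamini-Hochberg over all of them, and fold changes on this scale understate low genes. RPKM times GENCODE v44 exon length gave whole reads, within 0.05, for at least 99.0% of values under 1000 reads. Limma-voom with TMM used these reads where a gene had at least 10 on average. On simulated data 30% of true 1.25-fold changes and 73.2% of 1.5-fold changes were found, and false calls made up 8.35%. The simulation changed a smaller share of genes than was called here, drew them at any tested level and assumed the same replicate spread for all genes.

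The members and lists were chosen with earlier results of these data known. Values in every library are given for members called in the main test or in at least 2 alternatives other than leave-outs, and for PIK3R6, RPTOR, RRAGD and PIK3IP1, which the study names. The most and least abundant members (4 each) are given by level, and called genes of the other lists are named. Further members were described after their values were seen. Some genes of these lists are not reported here. The alternatives were no scaling, median-of-ratios scaling, pseudocounts of 1 and 0.01, no filter, a mean of at least 1 RPKM, limma-voom, and the library letter as a block (8 in all), besides leaving out each library. Promoter sequences are from RefSeq (GRCh38.p14), and gene positions from GENCODE. Tables and figures used Python 3.11.15, pandas 2.3.3, numpy 2.4.6 and matplotlib 3.10.9.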

Additional observations from a re-analysis of the deposited data

How the results depend on the processing

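Of the 1516 genes called, 597 were higher and 919 lower (39.4% higher), whereas without scaling 1424 were higher and 630 lower (69.3% higher). The total was 219 with no filter, 2785 in limma-voom and 397 to 824 without each library. Members called higher numbered 4 without scaling, 0 with no filter, 2 at a mean of at least 1 RPKM, 2 in limma-voom and 0 to 1 without each library, against 1 in the main test. Members called lower numbered 1 with no filter, 7 at a mean of at least 1 RPKM, 9 in limma-voom and 1 to 3 without each library, against 4. Of the other pathway genes, 1 was called with no filter, 19 in limma-voom, 5 with the library letter as a block and 1 to 2 without each library, against 10. The alternatives that filter or leave out libraries test other genes or fewer samples; the cause of the remaining differences was not tested.

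No called member changed direction. Without scaling, the log2 fold change turned positive for PIK3C2A (0.025), PIK3R4 (0.065), MLST8 (0.042), TSC1 (0.032), RPS6KB1 (0.043), LAMTOR3 (0.026) and LAMTOR4 (0.030), none of them called. That of PIK3R4 was also above 0 with median-of-ratios scaling (0.0070) and in limma-voom (0.0025). Leaving out each library turned the sign of 8 uncalled members, whose values ran from -0.015 to 0.13 for PIK3R1, from -0.045 to 0.043 for PIK3R4, from -0.034 to 0.034 for AKT2, from -0.065 to 0.016 for MLST8, from -0.063 to 0.068 for DEPTOR, from -0.077 to 0.012 for TSC1, from -0.021 to 0.047 for EIF4EBP2 and from -0.12 to 0.047 for LAMTOR4.

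The letters a and b of the titles were taken as a replicate block in one alternative. The differences between a and b in control and in ISO had a correlation of -0.126 across 6208 genes above 5 RPKM, so the letters were not read as pairs. With the replicate block 1272 genes and 4 members were called, 1 higher and 3 lower, and the RPS6KB2 call was lost (adjusted p = 0.057). With 2 libraries per group, a change of 1.25-fold was often missed in simulation. Because that simulation changed a smaller share of genes than was called here, its rates are not the power for these members. Most members changed by less than 1.25-fold.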

Other observations

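Transcription targets that lie downstream of the pathway were listed too. FOXO factors are shut out of the nucleus by AKT, and of 12 tested genes known as FOXO targets, 1 rose and 1 fell, 16.7% beside 9.91% of all tested genes (3.9% higher and 6% lower), with a median log2 fold change of -0.12 beside -0.01 for all tested genes. PIK3IP1 was the one that rose. KLF6, a zinc finger transcription factor, fell from 26.0 and 26.5 RPKM in control to 23.6 and 23.2 RPKM in ISO libraries (log2 fold change -0.23, SE 0.037, limma adjusted p = 0.016), and its call was lost without any one library (adjusted p up to 0.073) and with no filter (0.060). The genes of the FOXO factors themselves, FOXO1, FOXO3 and FOXO4, had log2 fold changes of 0.03, -0.03 and 0.02.

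TFEB and its relative MITF, which mTORC1 holds in the cytoplasm, drive lysosomal genes, and of 12 tested targets 1 rose and 2 fell, 25% beside the same 9.91% of all tested genes (3.9% higher and 6% lower), with a median log2 fold change of -0.12 beside -0.01. SQSTM1, the autophagy receptor p62, rose from 64.7 and 62.0 RPKM to 73.5 and 75.6 RPKM (log2 fold change 0.17, limma adjusted p = 0.0499). CTSD, the lysosomal protease cathepsin D, fell from 87.9 and 82.4 RPKM to 76.3 and 79.4 RPKM (log2 fold change -0.20, limma adjusted p = 0.049). FNIP1 was the other gene that fell. The calls of SQSTM1 and CTSD were lost without any one library and with the library letter as a block (adjusted p = 0.063 and 0.057), and over all leave-outs their adjusted p ran up to 0.22. Both were also lost with no filter (0.13 and 0.15) and with a pseudocount of 1 (0.051 and 0.0503), SQSTM1 with a pseudocount of 0.01 (0.051), and CTSD without scaling (0.097) and with median-of-ratios scaling (0.052). RRAGC and RRAGD, which belong to the same list, were not called. TFEB lay near 1 RPKM and TFE3 at 25.8 to 27.6 RPKM, with log2 fold changes of -0.02 and -0.02.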
